A study of Homo sapiens with 16 samples.

Results

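The genes described here encode the machinery of the G1 phase of the cell cycle: the D-type cyclins CCND1, CCND2 and CCND3, their kinases CDK4 and CDK6, the E-type cyclins CCNE1 and CCNE2 with their kinase CDK2, and the pocket proteins RB1 and RBL1. They are 10 named genes of the 35052 to which deposited transcripts could be matched, and all 10 were among the 17559 genes that passed the low-count filter. Their RNA was measured in K562, an established human leukaemia cell line of wild-type genotype, treated with 25 nM PMA, a phorbol ester that activates protein kinase C and drives these cells towards a megakaryocyte-like state. After removal of ribosomal RNA, total RNA was sequenced before PMA (0 h), early (0.5 and 1.5 h), at intermediate times (3 and 6 h) and late (24, 48 and 72 h), with 2 libraries at each of the 8 times and 16 in all. The 0 h libraries served as the untreated reference, all libraries came from the same line, and the medium was changed after 24 and 48 h, per the labels.

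D-type cyclins bind CDK4 or CDK6, and the active complexes phosphorylate RB1 and its relatives, which otherwise hold E2F transcription factors in check. Released E2F drives genes of DNA replication and the E-type cyclins, which bind CDK2 and carry the cell into S phase. Megakaryocytes become polyploid by endomitosis, in which DNA is replicated without complete division of the cell, and D-type cyclins are known to promote it.

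Libraries held 27285773 to 54056289 estimated reads, and a single G1 gene had from 242 reads (CCNE2 in 0 h replicate 2) to 17329 reads (CDK6 in 3 h replicate 1). Within a gene, levels are given as CPM, read counts relative to a library size scaled by TMM, a factor that sets the bulk of genes equal between libraries. Levels of different genes are compared in TPM, the authors' measure per length of transcript. A gene is said to have risen or fallen where edgeR's quasi-likelihood test gave a Benjamini-Hochberg adjusted p under 0.05 over all tested genes. Nothing in the labels says that the 2 libraries of a time point came from separate cultures, so the p-values measure only the spread between them. The library 0 h replicate 2 stood apart in fragment length, at 199.4 nt by the gap between transcript and effective length, against 210.2 to 221.4 nt in the replicate 1 libraries and 229.7 to 248.7 nt in the other replicate 2 libraries. The labels name no batch. Within each set of same-numbered libraries, 57 of the 58 called member values had the same direction, and a fit with the replicate number as a block kept all 58 calls. Over genes, GC content correlated with the 0 h replicate difference at r = -0.71, and the 0.5 h and 1.5 h contrasts with 0 h went with it at r = -0.77 and -0.43. The later contrasts with 0 h had r from -0.17 (6 h) to -0.03 (48 h). At the other times the replicate difference had r from -0.55 (72 h) to 0.37 (3 h), and the step from 48 to 72 h had -0.37. CCND3 is GC-rich (59.9%), whereas CCNE2 (36.4%), RB1 (37.3%), CDK6 (39.9%) and RBL1 (40.3%) are GC-poor. Early values of these genes are given below with and without 0 h replicate 2 where it matters. At 72 h, CCNE2, RB1, CDK6 and RBL1 were each higher in replicate 1, and CCND3 was higher in replicate 2.

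The markers of the labelled state moved in part. The summed TPM of 12 megakaryocyte markers was 38.7 to 46.4 at 0 h and 1760 to 1840 at 72 h, carried by THBS1 (1240 and 1220 TPM at 72 h) and ITGB3 (488 and 427 TPM). ITGA2B went from 34.2 and 42.6 TPM at 0 h to 8.3 and 6.68 TPM at 24 h, then 41.4 and 45.3 TPM at 72 h. Only 7 of the 12 were tested, and edgeR called 4 higher and 3 lower at 24 h, beside 31.7 and 26.6% of all genes. At 72 h it called 5 higher and 0 lower, beside 31.7 and 26.9%. Of the 12 megakaryocyte markers, 7 stayed under 1 TPM in both 72 h libraries, including PF4, GP1BA, SELP and GP9, the last at 0. The 12 erythroid markers summed to 5680 to 6400 TPM at 0 h, 2250 to 2670 TPM at 24 h and 3680 to 4780 TPM at 72 h. HBG2 held most of that sum, with 3030 and 3270 TPM at 0 h and 3100 and 2130 TPM at 72 h. By edgeR, all 12 were lower at 24 h (median log2 fold change -3.27), beside 26.6% of all genes. At 72 h, 9 were lower and 0 higher (median -1.71), beside 26.9 and 31.7% of all genes. Monocyte markers summed to 80.7 to 89.9 TPM at 0 h and 72.6 to 82.2 TPM at 72 h, but single members moved apart. LYZ, most of the sum, went from 88.5 and 79.3 to 61.4 and 51.5 TPM. MPO went from 0.0313 and 0.03 to 11.9 and 11.5 TPM, and CSF1R from 0.127 and 0.0387 to 7.77 and 7.08 TPM. Of the 5 monocyte markers tested, edgeR called 2 higher and 1 lower at 72 h, beside 31.7 and 26.9% of all genes. Lymphocyte markers went from 24.3 to 36.3 TPM up to 60.4 to 75.8 TPM, mostly CD3D, and fibroblast markers from 14.7 to 15.2 TPM up to 85.5 to 124 TPM, mostly COL1A1, with LUM at 0. The part of these marker levels in the results on G1 genes was not tested. In RNA from whole cultures, fewer cells of a kind and less RNA per cell cannot be told apart.

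Each time point was compared with 0 h to find when the G1 genes moved. At 0.5 h, edgeR called 0 of the 10 genes, as it did 0.171% of all genes, while 4 of the 10 had an unadjusted p under 0.05 and DESeq2 also called 0. Without 0 h replicate 1, the only 0 h reference was replicate 2, the library that stood apart in fragment length. CCND3 was then -0.59, CCNE2 0.75, CDK6 0.55, RB1 0.63 and RBL1 0.37 (log2), against -0.38, 0.30, 0.32, 0.37 and 0.25 as fitted. The other end of the range over single removals was -0.14, -0.04, 0.12, 0.16 and 0.14, in that order. At 1.5 h, 2 genes were called (1 higher, 1 lower), against 17.1% of all genes (9.05% higher and 8.05% lower), and 0 were called without 0 h replicate 2 or without either 1.5 h library. At 3 h, 5 were called (3 higher, 2 lower), against 42% of all genes (21.5 and 20.5%), and 3 without 0 h replicate 2. At 6 h the count was 6 (3 higher, 3 lower), beside 57.2% of all genes (27.8 and 29.4%). It was 8 at 24 h (4 and 4), beside 58.3% (31.7 and 26.6%), then 9 at 48 h (5 and 4), beside 54.3% (30.2 and 24.1%), and 8 at 72 h (4 and 4), beside 58.6% (31.7 and 26.9%). With libraries scaled to total counts, which moved the median of all genes to -0.28, -0.35, -0.26 and -0.18 (log2) at 3, 6, 24 and 48 h, the higher calls were 1 of 5, 3 of 8, 3 of 8 and 4 of 9, and at 1.5 h 0 of 1. For counts with total counts or with a library left out, no share of all genes is given, so they describe only how the counts moved. Over the whole course, a test of any difference among the 8 time points called all 10 genes, where 82.9% of all genes were called.

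Neighbouring time points were compared to place the changes in time. From 0.5 to 1.5 h, 0 of the 10 genes were called by edgeR or DESeq2 (5.77% of all genes), and 0 had an unadjusted p under 0.05. Over the step from 1.5 to 3 h 2 were called (25.1% of all genes), over 3 to 6 h 6 (41.2%), over 6 to 24 h 7 (56.6%) and over 24 to 48 h 5 (15%). The count from 24 to 48 h lay farthest above the share over all genes. Leaving out a single library lowered the count from 1.5 to 3 h to 1 (3 h replicate 1 or 1.5 h replicate 2 removed). The same lowered the count from 24 to 48 h to 1 or 2, whichever of its 4 libraries was removed, and counts made from TPM and a fixed gene length gave 2. From 48 to 72 h, 0 were called by edgeR or DESeq2 (1.47% of all genes), and 1, CCND1, had an unadjusted p under 0.05. The median log2 fold change of the 10 genes against 0 h was between -0.12 and 0.12 at every time, beside -0.03 to 0.00 for all genes.

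**Figure D1:**
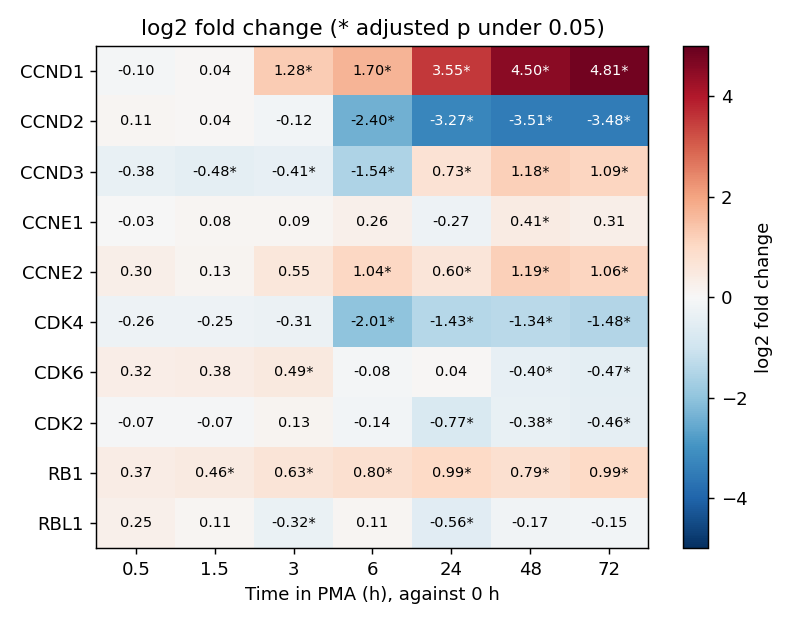
log2 fold change of each G1 gene (rows) at each time in PMA against 0 h (columns, h), fitted by edgeR over 16 libraries, with a star where the adjusted p was under 0.05. CCND1 reached 4.81 and CCND2 -3.48 at 72 h, CCND3 went from -1.54 at 6 h to 1.09 at 72 h, and CDK4 was lowest at 6 h with -2.01.

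The 3 D-type cyclins followed different courses, and CCND1 and CCND2 exchanged places. CCND1, the D cyclin most often induced by growth signals, measured 13.7 and 15.3 CPM at 0 h, 13.3 and 13.8 at 0.5 h, 14.5 and 15.2 at 1.5 h, 36.6 and 33.9 at 3 h, then 45.3 and 48.6 at 6 h. It then measured 161 and 178 CPM at 24 h, 311 and 346 at 48 h, then 418 and 398 at 72 h. The first 3 time points overlapped or nearly touched, and from 3 h on both libraries of each time lay above both libraries of every earlier time. The rise was 1.28 on the log2 scale at 3 h (SE 0.10, edgeR adjusted p = 2.47e-07), 3.55 at 24 h (SE 0.10, adjusted p = 5.77e-12) and 4.81 at 72 h (SE 0.11, adjusted p = 4.67e-13), or 28.1-fold. Each step from 1.5 to 48 h was called, with 1.25, 0.41 (0.63 with counts from TPM), 1.85 and 0.96 in turn, and the step from 48 to 72 h, 0.31, had an adjusted p of 0.145. The gene lies at chr11:69641087-69654474 (GRCh38, plus strand), and its transcript CCND1-201 carried 94.9 to 99% of its estimated reads in every library. LTO1 on the opposite strand overlaps 10.3% of its exon bases, at 26.2 TPM at 0 h and 36.1 TPM at 72 h.

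CCND2, which shares the kinases of CCND1, was the D cyclin with the highest read count in untreated cells. It held 273 and 263 CPM at 0 h, 293 and 286 at 0.5 h, 268 and 286 at 1.5 h, then 263 and 232 at 3 h. It fell to 52 and 49.8 CPM at 6 h, 27 and 28.4 at 24 h, 24 and 23.2 at 48 h, then 25.5 and 22.6 at 72 h. No library from 6 h on came near the lowest early value. The log2 fold change against 0 h was -2.40 at 6 h (SE 0.09, edgeR adjusted p = 1.06e-10) and reached -3.48 at 72 h (SE 0.10, adjusted p = 3.16e-12), 11.2-fold lower. Almost all of it came between 3 and 6 h (-2.28, adjusted p = 1.38e-09) and 6 and 24 h (-0.88, adjusted p = 3.31e-06). CCND2 spans chr12:4273772-4305350 (plus strand), and CCND2-201 held at least 99.5% of its reads. The unnamed gene ENSG00000285901 overlaps 13.8% of its exon bases on the same strand, at 1.49 TPM at 0 h and 1.61 TPM at 72 h.

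**Figure D2:**
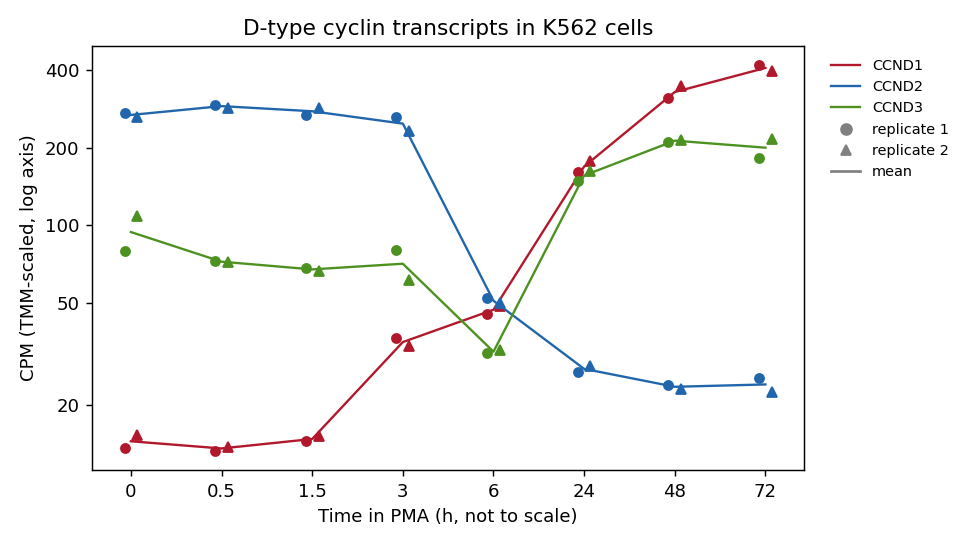
CPM (TMM-scaled, log axis) of CCND1, CCND2 and CCND3 against time in PMA (h, not to scale), with circles for replicate 1, triangles for replicate 2 and lines through the means. CCND2 dropped from 263 and 232 CPM at 3 h to 52 and 49.8 at 6 h, where it met the rising CCND1 at 45.3 and 48.6, while CCND3 dipped to 31.9 and 32.7 before rising.

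CCND3, the D cyclin most widely expressed in blood cells, dipped and then overshot. Its libraries held 79.6 and 109 CPM at 0 h, 72.7 and 71.7 at 0.5 h, 68.2 and 66.5 at 1.5 h, then 80.4 and 61.5 at 3 h. It measured 31.9 and 32.7 CPM at 6 h, 149 and 163 at 24 h, 211 and 215 at 48 h, then 183 and 216 at 72 h. The 6 h pair lay under every other library, and the pairs from 24 h on lay above all earlier ones. The log2 fold change against 0 h was -1.54 at 6 h (SE 0.15, edgeR adjusted p = 8.51e-07), 0.73 at 24 h (SE 0.14, adjusted p = 0.000667) and 1.09 at 72 h (SE 0.14, adjusted p = 2e-05). The step from 6 to 24 h was 2.27 (SE 0.15, adjusted p = 4.84e-08), a 4.82-fold rise. Earlier calls of a fall, -0.48 at 1.5 h (adjusted p = 0.0362) and -0.41 at 3 h (adjusted p = 0.0359), were not called without 0 h replicate 2 (-0.24 and -0.17), nor after removal of each library's GC trend (-0.15 and -0.04), nor with counts from TPM (-0.41 and -0.24). The fall at 6 h was -0.95 with the GC trend removed and -1.30 without 0 h replicate 2, and the rise at 24 h was 0.48 with total counts, each still called. The step from 24 to 48 h (0.45) had an edgeR adjusted p of 0.0506. It was called with RLE size factors, total counts, no filter, a stricter filter, a replicate block or the GC trend removed, and by DESeq2 (0.34 to 0.53). With counts from TPM, or without any single library of those times, the step was not called.

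CCND3 has more than 1 annotated start, and the estimated reads could be divided between them. The gene spans chr6:41934933-42050357 on the minus strand, with 23 annotated transcripts in the deposited tables. The sequences of the region before its main downstream start (chr6:41941809-41942058) and its upstream start (chr6:42048689-42048938) are printed because the reads of the 2 starts followed different courses. They come from RefSeq (GRCh38.p14, minus strand), run 5′ to 3′ and end at the base before the start, so each is 250 bases long. Capitals mark a match to E2F, AP-1, E-box, EGR or STAT motifs, defined below.
CCND3 downstream start: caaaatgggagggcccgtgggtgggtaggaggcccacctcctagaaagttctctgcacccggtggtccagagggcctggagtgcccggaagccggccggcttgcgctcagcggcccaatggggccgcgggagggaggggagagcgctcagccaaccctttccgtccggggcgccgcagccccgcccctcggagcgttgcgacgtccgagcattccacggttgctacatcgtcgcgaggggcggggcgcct
CCND3 upstream start: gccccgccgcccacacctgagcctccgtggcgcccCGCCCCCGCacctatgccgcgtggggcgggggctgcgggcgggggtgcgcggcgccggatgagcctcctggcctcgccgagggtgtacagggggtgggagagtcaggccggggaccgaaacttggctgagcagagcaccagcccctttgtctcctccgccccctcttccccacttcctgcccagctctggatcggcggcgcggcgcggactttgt

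Transcripts from the downstream start (CCND3-203 and CCND3-212) held 71 and 99.8 CPM at 0 h, 21.1 and 21 CPM at 6 h, then 153 and 177 CPM at 72 h. The 13 transcripts from the upstream start held 4.04 and 3.48 CPM at 0 h, 5.05 and 6.31 CPM at 6 h, then 18.2 and 25.5 CPM at 72 h. The remaining 8 transcripts held 4.56 and 5.37 CPM at 0 h, 5.76 and 5.39 CPM at 6 h, then 11.8 and 14.1 CPM at 72 h. Their annotated starts lie outside the 2 start regions, though those of CCND3-204 and CCND3-202 lie close by. The dip at 6 h was thus seen in the reads of the downstream start, and neither in those of the upstream start nor in the sum of the other transcripts. Within that sum the courses differed. CCND3-201 went from 56.4 and 104.3 reads at 0 h to 23.3 and 36.8 at 6 h, and CCND3-215 from 36.1 and 16.5 to 73.4 and 70.6. The downstream start's share of the gene's reads was 89.2 and 91.9% at 0 h, 66.1 and 64.2% at 6 h, then 83.6 and 81.7% at 72 h. That of the upstream start was 5.07 and 3.2%, then 15.8 and 19.3%, then 9.95 and 11.8%. These shares rest on the authors' division of reads among overlapping transcripts, whose error is not given, and were not tested.

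Motifs were searched on both strands of 300-base windows, from 250 bases before to 50 after each start, in RefSeq's table. The motifs were E2F (TTTCCCGC, TTTCGCGC, TTTGCCGC, TTTGGCGC), EGR (GCGTGGGCG, GCGGGGGCG) and STAT (TTCNNNGAA). The motif of AP-1, the FOS and JUN dimer, was read as TGANTCA. That of the E-box, bound by MYC among others, was CACGTG. The CHR element of late cell cycle genes was TTTGAA. The motif of GATA factors was AGATAA or, as a variant, TGATAA. Sp1 had GGGCGG. Of all 35116 windows, 3.31% held E2F, 7.71% AP-1, 7.26% the E-box, 5.77% EGR, 7.66% STAT, 15.2% CHR, 16.3% GATA and 45% Sp1. The upstream CCND3 window held 1 EGR match on the reverse strand, CGCCCCCGC from base -215, which overlaps 1 of its 5 Sp1 matches. The downstream window held 4 Sp1 matches and none of the other motifs. A match is a description of letters and not of binding. The table held windows for 6 of the 10 genes: CCND3, CCNE1, CDK4, CDK6, RB1 and RBL1. The RB1 window lay at an internal start with at most 1.32% of the gene's reads and was not described further.

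Added up per length, D-cyclin transcripts were fewest at 6 h and most abundant at 48 and 72 h. Summed TPM of the 3 genes was 151 and 160.0 at 0 h, 121 and 112 at 3 h, 59.2 and 54 at 6 h, 221 and 207 at 24 h, 361 and 349 at 48 h, then 353 and 407 at 72 h. At 0 h the pool was shared by CCND2 (47.4 and 40.9%) and CCND3 (48.2 and 54.6%), with CCND1 at 4.4 and 4.5%. At 6 h CCND1 had 34 and 32.5%, CCND2 17.1 and 16% and CCND3 48.9 and 51.5%. By 72 h CCND2 was at 1.81 and 1.43%, and CCND1 (49.2 and 45.8%) and CCND3 (49 and 52.8%) made up nearly all of the pool. CCND3 therefore kept a share between 42.9 and 64.4% in every library, while CCND1 replaced CCND2. TPM are relative to the whole library, and these sums and shares were not tested.

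**Figure D3:**
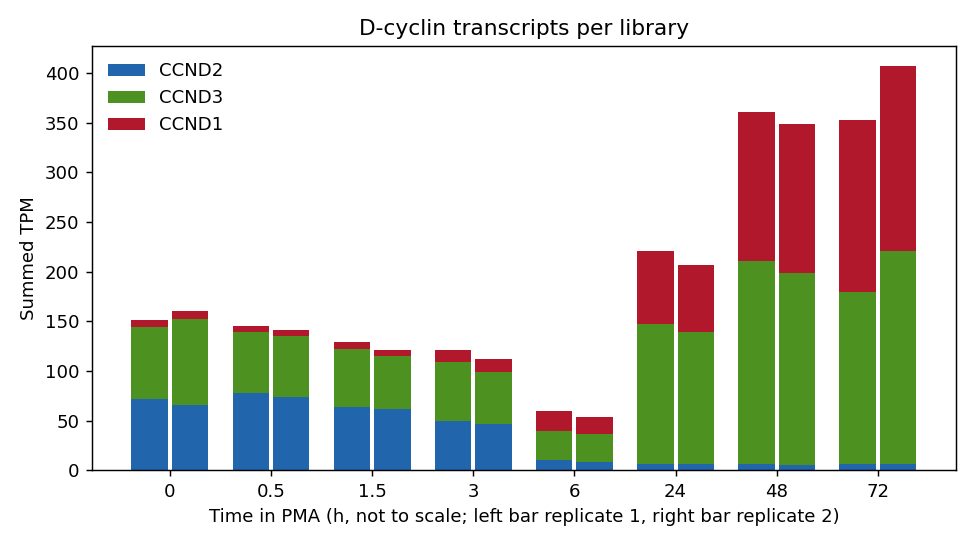
Summed TPM of the D cyclins in each library, stacked by gene, against time in PMA (h, not to scale), with replicate 1 on the left and replicate 2 on the right of each pair. The pool was lowest at 6 h (59.2 and 54 TPM) and highest at 48 and 72 h (349 to 407 TPM), and the share of CCND2 shrank from 47.4 and 40.9% to 1.81 and 1.43%.

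Of the kinase partners of the D cyclins, CDK4 fell from 6 h on and stayed below its untreated level. CDK4 measured 154 and 185 CPM at 0 h, 143 and 141 at 0.5 h, 145 and 140.0 at 1.5 h, then 157 and 116 at 3 h. It fell to 45.5 and 38.9 CPM at 6 h and measured 63.2 and 63.1 at 24 h, 70.2 and 63.5 at 48 h, then 66.7 and 54.5 at 72 h. All 8 libraries from 6 h on lay below all 8 earlier ones. The log2 fold change against 0 h was -2.01 at 6 h (SE 0.15, edgeR adjusted p = 5.86e-08), 4.03-fold lower, and -1.48 at 72 h (SE 0.15, adjusted p = 1e-06), with a step of -1.70 between 3 and 6 h (adjusted p = 8.57e-07). At 3 h the value of -0.31 was not called (adjusted p = 0.0981). It was called with total counts (-0.60, adjusted p = 0.00131), with counts from TPM (-0.53, adjusted p = 0.0119), with no filter (-0.32) and on removal of replicate 1 at 0 h (-0.44) or at 3 h (-0.54), and was -0.01 with the GC trend removed. The partial return from 6 to 24 h, 0.58 (adjusted p = 0.00413), was not called without 6 h replicate 2 (0.45, adjusted p = 0.0636) or with the GC trend removed (0.26, adjusted p = 0.124). TSPAN31 on the opposite strand overlaps 43.2% of the exon bases of CDK4, at 12 TPM at 0 h, 10.4 at 6 h and 32.5 at 72 h. Whether the authors counted by strand is not given in the sources used here, so reads of the overlap cannot be told apart.

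CDK4 lies at chr12:57747727-57756013 on the minus strand, and its main start carried 92.1 to 97.3% of its reads. The 250 bases before that start (chr12:57752311-57752560, minus strand, RefSeq GRCh38.p14) are printed because they hold 3 copies of the E-box CACGTG, shown in capitals, a sequence that MYC and related factors are known to bind.
CDK4: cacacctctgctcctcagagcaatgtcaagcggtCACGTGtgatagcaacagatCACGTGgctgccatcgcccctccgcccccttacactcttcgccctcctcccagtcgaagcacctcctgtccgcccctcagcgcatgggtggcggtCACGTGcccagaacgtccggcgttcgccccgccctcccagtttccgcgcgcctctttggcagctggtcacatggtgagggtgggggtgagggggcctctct

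The copies begin at bases -216, -196 and -101. Of all 35116 windows, 33 (0.094%) held 3 or more. The CDK6 window at its main start held none of the motifs searched.

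CDK6, the second kinase of D cyclins and the one prominent in blood cells, moved little by comparison. It measured 370.0 and 274 CPM at 0 h, 412 and 389 at 0.5 h, 413 and 423 at 1.5 h, then 475 and 428 at 3 h. It then measured 309 and 299 CPM at 6 h, 347 and 313 at 24 h, 248 and 239 at 48 h, then 257 and 208 at 72 h. The 0 h pair was wide enough to span the 6 and 24 h values, while the 3 h pair lay above and the 48 and 72 h pairs below it. edgeR called 0.49 at 3 h (SE 0.13, adjusted p = 0.00958), -0.40 at 48 h (SE 0.13, adjusted p = 0.0212) and -0.47 at 72 h (SE 0.13, adjusted p = 0.00846). Of these, the rise at 3 h was not called without 0 h replicate 2 (0.29) or 3 h replicate 1 (0.41), nor with total counts (0.20). With counts made from TPM and a fixed gene length it was -0.11, and CDK6 was then called lower at 6 h (-0.66) and 24 h (-0.47), with -0.85 at 48 h and -0.97 at 72 h. Total counts also called it lower at 6 h (-0.45, adjusted p = 0.00938), and the direction of CDK6 at 3, 6 and 24 h thus differed between settings. Neither later fall was called without 0 h replicate 1 (-0.17 at 48 h and -0.23 at 72 h). The 48 h fall was also lost without either 48 h library (-0.43 and -0.38), and the 72 h fall without 72 h replicate 2 (-0.32). The drop from 3 to 6 h, -0.57 (adjusted p = 0.0036), kept its call under every alternative run. CDK6 occupies chr7:92604921-92836594 on the minus strand.

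In TPM, CDK4 and CDK6 together held 290.0 and 312 at 0 h, 89.8 and 67.7 at 6 h, then 124 and 115 at 72 h. CDK4 made up 77.8 and 74.6% of that sum at 0 h, 54.7 and 54.1% at 6 h and 69.3% in both libraries at 72 h. D-cyclin TPM per TPM of the 2 kinases was 0.521 and 0.514 at 0 h, 0.659 and 0.797 at 6 h, 1.64 and 1.85 at 24 h, then 2.85 and 3.53 at 72 h. The 72 h libraries thus had more D-cyclin than kinase transcripts, and the 0 h libraries fewer. In 0 h replicate 2, 11.9% of CDK6 reads were assigned to the shorter transcript CDK6-202, against 0.512 to 2.77% in the other libraries. CDK6 TPM there was 79.3, against 64.4 in replicate 1, although its CPM was the lower of the pair.

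**Figure D4:**
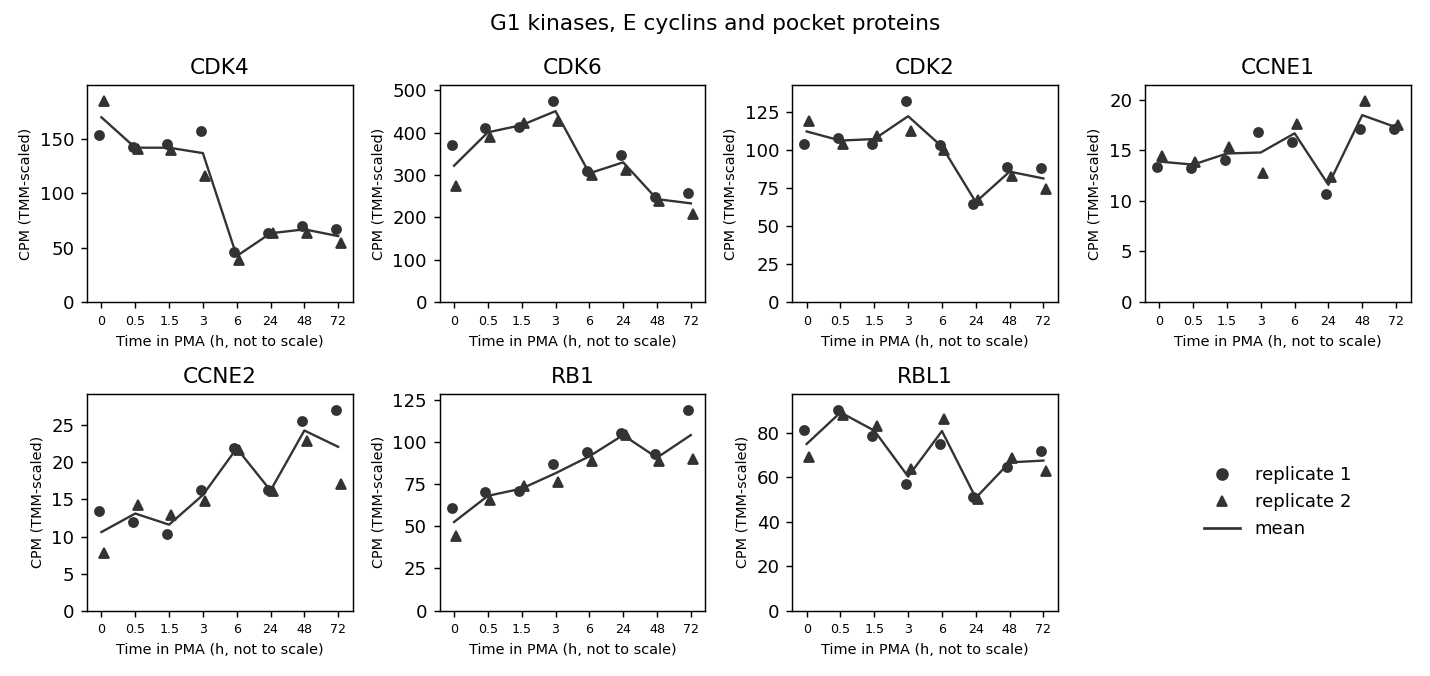
CPM (TMM-scaled, axes from 0) of CDK4, CDK6, CDK2, CCNE1, CCNE2, RB1 and RBL1 against time in PMA (h, not to scale), with circles for replicate 1, triangles for replicate 2 and lines through the means. CDK4 dropped between 3 and 6 h to 45.5 and 38.9 CPM, RB1 ended at 119 and 89.9 CPM after 61 and 44.1 at 0 h, and CDK2, CCNE1 and RBL1 each had a low point at 24 h.

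The E-type cyclins had few reads in every library, 333 to 715 for CCNE1 and 242 to 974 for CCNE2, and differed from each other. CCNE1 measured 13.4 and 14.5 CPM at 0 h, 15.8 and 17.6 at 6 h, 10.7 and 12.4 at 24 h, 17.1 and 19.9 at 48 h, then 17.1 and 17.5 at 72 h. At the other times it lay between 12.8 and 16.8 CPM. The 24 h pair lay below all other libraries, and the 48 and 72 h pairs above the 0 h pair. Against 0 h, edgeR called only the 48 h value, 0.41 (SE 0.14, adjusted p = 0.0248), and that call was lost without 0 h replicate 1 (0.35), without 48 h replicate 2 (0.29), with total counts (0.24) and with counts from TPM (0.10). Other settings added calls: 0.37 at 3 h and 0.63 at 6 h with the GC trend removed (0.26 at 6 h as fitted, and -0.11 with total counts), and -0.52 at 24 h with total counts and -0.46 with counts from TPM. At 72 h, 0.36 was called with RLE size factors and with a stricter filter, and 0.39 with the GC trend removed. The steps down from 6 to 24 h (-0.53, adjusted p = 0.00647) and up from 24 to 48 h (0.68, adjusted p = 0.00549) were called, but neither without 24 h replicate 1 (-0.43, adjusted p = 0.0576, and 0.58, adjusted p = 0.0614).

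CCNE2 measured 13.4 and 7.79 CPM at 0 h, 12 and 14.2 at 0.5 h, 10.3 and 12.9 at 1.5 h, then 16.3 and 14.8 at 3 h. It reached 22 and 21.7 CPM at 6 h, 16.3 and 16.1 at 24 h, 25.6 and 22.9 at 48 h, then 27.1 and 17.1 at 72 h. From 3 h on, every library lay above both 0 h libraries, which differed widely from each other. The log2 fold change was 1.04 at 6 h (SE 0.24, edgeR adjusted p = 0.00176), 1.19 at 48 h (SE 0.24, adjusted p = 0.00069) and 1.06 at 72 h (SE 0.24, adjusted p = 0.0015). Leaving out 1 library moved these values between 0.70 and 1.49 at 6 h, 0.85 and 1.64 at 48 h, and 0.69 (without 72 h replicate 1) and 1.51 at 72 h (without 0 h replicate 1), and total counts gave 0.67 at 6 h. The value at 3 h was called with counts from TPM (0.75), with no filter (0.54), by DESeq2 (0.57), without 0 h replicate 1 (1.00) and with the GC trend removed (0.59). Without 0 h replicate 2 the rise at 24 h, 0.60 (adjusted p = 0.0405), became 0.27 and was not called, and it was also lost without either 24 h library. INTS8 on the opposite strand overlaps 37% of its exon bases, at 109 TPM at 0 h, 62.6 at 6 h and 101 at 72 h, well above CCNE2 itself (8.5, 13.2 and 17.3 TPM), so reads of the shared bases cannot be told apart.

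CDK2, the kinase of the E cyclins, measured 104 and 119 CPM at 0 h, a mean of 102 (SD 2.20, n = 2) at 6 h, 64.2 and 66.9 at 24 h, 88.7 and 82.5 at 48 h, then 88.1 and 74.2 at 72 h. Between 0.5 and 3 h it lay between 104 and 132 CPM. The 24 h pair was the lowest, and all libraries from 24 h on lay below all earlier ones. The log2 fold change was -0.77 at 24 h (SE 0.11, edgeR adjusted p = 3.2e-05) and was -0.46 at 72 h (SE 0.11, adjusted p = 0.00202). The partial return from 24 to 48 h was 0.38 (adjusted p = 0.0264) and was not called without any 1 of its 4 libraries or with counts from TPM, and the 48 h value of -0.38 was not called without 0 h replicate 2 (-0.28) or 48 h replicate 2 (-0.33). At 6 h CDK2 was called lower with total counts (-0.50, adjusted p = 0.000151) and was 0.17 with the GC trend removed. CDK2 lies at chr12:55966769-55972784 (plus strand).

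Of the pocket proteins, RB1 rose at every time from 1.5 h on, whereas no rise of RBL1 against 0 h was called. RB1, the retinoblastoma protein, measured 61 and 44.1 CPM at 0 h, 70.2 and 65.8 at 0.5 h, 70.8 and 73.8 at 1.5 h, then 86.7 and 76.1 at 3 h. It went on to 94.1 and 88.7 CPM at 6 h, 105 and 104 at 24 h, 92.7 and 88.5 at 48 h, then 119 and 89.9 at 72 h. Every treated library lay above both 0 h libraries. The log2 fold change was 0.80 at 6 h (SE 0.15, edgeR adjusted p = 0.000337) and 0.99 at both 24 and 72 h (SE 0.15, adjusted p = 5.91e-05 and 5.33e-05), 1.99-fold higher. Calls at 1.5 h (0.46, adjusted p = 0.0464) and 3 h (0.63, adjusted p = 0.00329) were less firm: the first was lost without 0 h replicate 2 (0.24) or either 1.5 h library (0.49 and 0.43), and both were lost with total counts (0.37 and 0.34). The first was also lost with counts from TPM (0.43) and with the GC trend removed (0.25). With total counts the 6 h value was 0.43 and still called. No single step between neighbouring times was called for RB1 as fitted. The step from 1.5 to 3 h, 0.17 as fitted, was called with the GC trend removed (0.43, edgeR adjusted p = 0.00327). The gene lies at chr13:48303726-48599436 (plus strand).

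RBL1, also known as p107, measured 81.3 and 69 CPM at 0 h, 90.5 and 88.1 at 0.5 h, 78.8 and 83.4 at 1.5 h, 57 and 63.8 at 3 h, then 75.2 and 86.5 at 6 h. It was at 51.3 and 50.4 CPM at 24 h, 64.8 and 68.9 at 48 h, then 72.1 and 63 at 72 h. The gene thus had low points at 3 and 24 h. edgeR called -0.56 at 24 h (SE 0.11, adjusted p = 0.000477) and the step from 6 to 24 h, -0.67 (SE 0.11, adjusted p = 0.000134), under every alternative. The fall at 3 h, -0.32 (adjusted p = 0.0288), was not called without 0 h replicate 1 (-0.19) or 3 h replicate 1 (-0.24), and the return from 24 to 48 h, 0.39 (adjusted p = 0.0238), was not called without any 1 of its 4 libraries or with counts from TPM. RBL1 was called higher at 6 h with the GC trend removed (0.25, adjusted p = 0.0249) and was -0.26 at 6 h with total counts. At 0.5 h it was 0.37 without 0 h replicate 1. Total counts called RBL1 lower at 48 h (-0.34, adjusted p = 0.0202) and 72 h (-0.32, adjusted p = 0.0255), against -0.17 and -0.15 as fitted. Counts from TPM also called it lower at 48 h (-0.37, adjusted p = 0.0279). The steps from 1.5 to 3 h (-0.43) and 3 to 6 h (0.42) were also called, but not without 3 h replicate 1 (-0.37 and 0.35). The first was also lost with the GC trend removed (-0.20) and without 1.5 h replicate 2 (-0.38), and the second without 6 h replicate 2 (0.34). The ratio of RB1 to RBL1 in TPM was 0.63 and 0.561 at 0 h, 1.85 and 1.74 at 24 h, then 1.68 and 1.21 at 72 h.

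RBL1 spans chr20:36996349-37095995 on the minus strand, and the start shown carried at least 95.9% of its reads. The 250 bases before it (chr20:37095998-37096247, minus strand, RefSeq GRCh38.p14) are printed because they hold 2 E2F matches, in capitals, just before the start.
RBL1: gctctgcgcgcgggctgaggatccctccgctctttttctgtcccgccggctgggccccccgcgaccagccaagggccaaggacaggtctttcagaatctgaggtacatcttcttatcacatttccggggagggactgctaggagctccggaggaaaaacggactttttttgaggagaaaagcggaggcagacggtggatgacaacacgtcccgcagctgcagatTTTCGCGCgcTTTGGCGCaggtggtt

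The matches, TTTCGCGC and TTTGGCGC, begin at bases -26 and -16. Of all windows, 51 (0.145%) held 2 or more. No E2F match was found in the windows of CCND3, CCNE1, CDK4 or CDK6.

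The order of levels per length changed over the course. At 0 h it ran from CDK4 (229 TPM) through CDK2 (94.6), CCND3 (80.1), CDK6 (71.8) and CCND2 (68.6) to RBL1 (32.3), RB1 (19.3), CCNE1 (16.7), CCNE2 (8.5) and CCND1 (6.93), as means of 2 libraries. CDK2, CCND3, CDK6 and CCND2 overlapped with their neighbours there, as did RB1 with CCNE1 and CCNE2 with CCND1. At 6 h the range was narrow, from CDK2 at 61.8 TPM to CCND2 at 9.38 TPM. By 72 h CCND3 (194 TPM) and CCND1 (180.0 TPM), whose libraries overlapped, stood above CDK4 (82.9), CDK2 (63.7), RB1 (37.8), CDK6 (36.7), RBL1 (26.2), CCNE1 (18.1), CCNE2 (17.3) and CCND2 (6.11). RB1 overlapped with CDK6 there, and CCNE1 with CCNE2. CCND1 thus went from the last place to the second, and CCND2 from the fifth to the last.

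The genes most like the 3 D cyclins over the 16 libraries were found by Pearson's r of log2 CPM among 11259 genes whose mean level was 5 CPM or more. Closest to CCND1 were FBXO32 (r = 0.997), COL6A3 (0.997) and PDE2A (0.994). COL6A3, a collagen chain, had mean CPM of 132 at 0 h, 358 at 6 h and 2100.0 at 72 h. Closest to CCND2 were CTH (0.997), EXOSC8 (0.995) and KLHDC7B (0.994), with CTH, an enzyme of cysteine synthesis, at 117, 33.4 and 14.8 CPM. Closest to CCND3 were IGFBP4 (0.992), AGAP3 (0.99) and MAPKAPK3 (0.99), and IGFBP4 went from 58.3 through 14.8 to 178 CPM. The libraries share time points, so these values describe likeness of course only.

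Other genes of the pathway were counted from 5 lists. Of 19 E2F-driven genes of the G1/S transition, 14 fell and 2 rose at 6 h, 17 fell and 1 rose at 24 h, and 17 fell and 1 rose at 72 h, beside 29.4, 26.6 and 26.9% of all genes that fell. Their median log2 fold change was -0.47, -1.54 and -1.09, beside 0.00, -0.01 and -0.03 for all genes. MCM7, a helicase subunit and the list's most abundant member, had 423 and 505 CPM at 0 h and 154 and 153 at 24 h (log2 fold change -1.59, SE 0.12, edgeR adjusted p = 1.13e-07). CDT1, which licenses replication origins, fell by 2.43 at 24 h (adjusted p = 1.03e-07) and MYBL2 by 2.08 (adjusted p = 1.13e-08), and MCM2 fell by 2.05 at 6 h (adjusted p = 1.42e-08). RRM2, the small subunit of ribonucleotide reductase, went the other way, from 96.1 and 99.8 CPM at 0 h to 541 and 595 at 6 h (2.54, SE 0.10, adjusted p = 7.26e-11) and 337 and 305 at 72 h (1.71, adjusted p = 2.43e-09). From 24 to 48 h, 15 of the 19 rose and 0 fell by edgeR, beside 8.88% of all genes that rose. At this step CCND1, CCNE1, CDK2 and RBL1 were also called higher, and CDK6 lower (-0.44). Of these calls, only that of CCND1 was kept under every alternative. The medium was changed after 24 h, which cannot be told apart from time in PMA at this step.

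Among 16 E2F factors and pocket-protein partners, 4 rose and 4 fell at 6 h, 2 rose and 8 fell at 24 h, and 3 rose and 7 fell at 72 h, beside 27.8 and 29.4%, 31.7 and 26.6%, and 31.7 and 26.9% of all genes. The 6 h counts lay near those shares. The medians were 0.00, -0.23 and -0.16. E2F2, an activating E2F, had 68.9 and 80.8 CPM at 0 h and 9.39 and 10.3 at 6 h (-2.92, SE 0.11, edgeR adjusted p = 6.69e-11), and was still lower at 72 h (-1.88, adjusted p = 2.43e-09). E2F1 fell by 1.14 at 24 h (adjusted p = 6.15e-06) and by 1.1 at 72 h (adjusted p = 8.17e-06). RBL2, or p130, the third pocket protein, fell by 1.25 at 6 h (adjusted p = 4.46e-07), from 76.8 and 64 to 29.6 and 29.5 CPM, and stood at 98 and 80.5 CPM at 72 h. RBBP4, the list's most abundant member, had a log2 fold change of -0.37 at 24 h (adjusted p = 0.0195).

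Of 7 CDK inhibitors, 5 were tested, and CDKN2A and CDKN2B had 0 reads in all libraries. At 6 h 2 rose and 2 fell, at 24 h 1 rose and 2 fell, and at 72 h 2 rose and 2 fell, where 57.2, 58.3 and 58.6% of all genes were called in either direction. CDKN1A, or p21, an inhibitor of cyclin-CDK complexes, went from 12.5 and 14.8 CPM at 0 h to 444 and 426 at 6 h (5.00, SE 0.17, edgeR adjusted p = 2.42e-11) and 82.9 and 92.9 at 72 h (2.69, adjusted p = 4.24e-09). CDKN2C, or p18, an inhibitor of CDK4 and CDK6, fell from 49.7 and 57.4 to 8.96 and 10.1 CPM at 6 h (-2.49, SE 0.14, adjusted p = 2.62e-09) and was at 22.7 and 21.9 CPM at 72 h (-1.26, adjusted p = 1.23e-06). The 6 h libraries thus held the lowest CDK4, CCND3 and CDKN2C levels of the course.

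Of 14 genes of CDK activation and cyclin turnover, 7 rose and 2 fell at 6 h, 7 rose and 4 fell at 24 h, and 4 rose and 4 fell at 72 h, and the 72 h counts lay near the 31.7 and 26.9% of all genes. At 6 h 27.8 and 29.4% of all genes rose and fell, and at 24 h 31.7 and 26.6%. SKP2, the ubiquitin ligase subunit that targets p27, fell by 1.46 at 6 h (SE 0.10, edgeR adjusted p = 1.81e-08) and by 1.35 at 72 h (adjusted p = 3.6e-08). CUL3, a ligase scaffold known to act on cyclin E, rose by 1.21 at 6 h (adjusted p = 4.1e-06) and 1.01 at 24 h (adjusted p = 2.61e-05), with 67.1 and 45.8 CPM at 0 h and 129 and 132 at 6 h. CKS1B, a partner of SKP2, fell by 0.88 at 72 h (adjusted p = 1.61e-05). SKP1, the list's most abundant member, rose by 0.54 at 6 h (adjusted p = 0.000205).

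Among 14 mitotic kinases, cyclins and genes of cytokinesis, 5 rose and 5 fell at 6 h, 1 rose and 11 fell at 24 h, and 1 rose and 6 fell at 72 h, with medians of 0.14, -0.62 and -0.16. Of all genes, 27.8 and 29.4%, 31.7 and 26.6%, and 31.7 and 26.9% rose and fell at these times. AURKB, the kinase of the chromosomal passenger complex, had 55.9 and 67.9 CPM at 0 h and 15 and 15.8 at 24 h (-2.01, SE 0.10, edgeR adjusted p = 1.79e-09). PLK1 fell by 1.45 at 24 h (adjusted p = 3.34e-07). At 6 h KIF20A fell by 0.99 (adjusted p = 4.53e-06) and ANLN, a scaffold of the cleavage furrow, rose by 0.98 (adjusted p = 1.39e-06). CDK1, the list's most abundant member, had a log2 fold change of -0.69 at 24 h (adjusted p = 0.00579) and -0.12 at 72 h (adjusted p = 0.596). From 24 to 48 h 11 of the 14 rose, beside 8.88% of all genes.

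**Figure D5:**
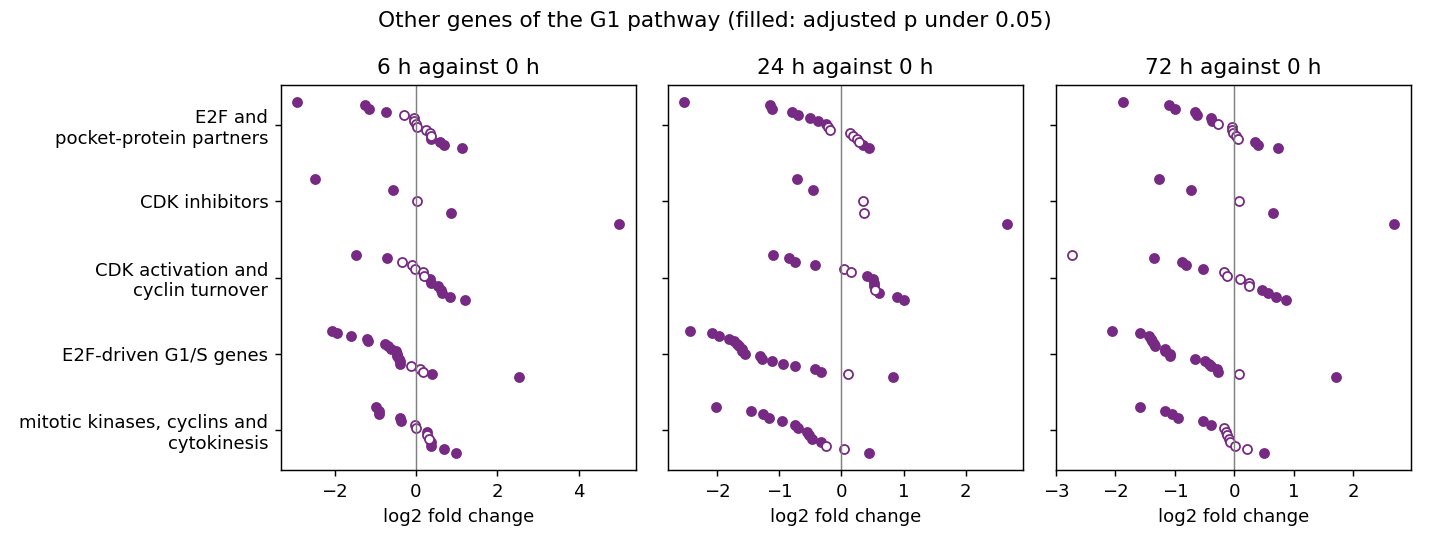
Fitted log2 fold change of each tested gene of 5 pathway lists (1 point a gene, ordered by value within its list) at 6, 24 and 72 h against 0 h, filled where the edgeR adjusted p was under 0.05. Most E2F-driven genes of G1/S lie left of 0 at 24 and 72 h (17 of 19 fell), with RRM2 as the point farthest right, and CDKN1A stands apart among CDK inhibitors at 5.00 at 6 h.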

How the data were processed

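RNA-seq libraries of K562 cells at 8 times in PMA, 2 each, were analysed. Per the file headers, the authors deposited for each library an estimated count of reads per transcript (not normalized, and not always whole) and TPM. Salmon, Trim Galore 0.4.3, HISAT2 2.1.0, SAMtools 1.9 and the builds hg19 and hg38 appear in the submitters' processing notes, with no role given, and the strand setting and transcript annotation are not given in the sources used here.

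Transcripts were assigned to genes by Ensembl identifier with GENCODE release 29 (GRCh38): 167027 of 177456 (94.12%) matched, and the others held 3.014 to 3.754% of reads. Estimated counts were summed per gene and rounded. Deposited TPM were summed per gene. edgeR 4.0.16 in R 4.3.3 (TMM, filterByExpr, prior count 0.125) fitted all 16 libraries by the quasi-likelihood method, with 8 residual degrees of freedom, and p-values were Benjamini-Hochberg adjusted over 17559 genes. A permutation test, which reshuffles the labels of 2 libraries against 2, cannot pass this threshold, so single genes rest on the shared spread. Motifs were matched as written, in RefSeq's promoter table.

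The script was tested on simulated data. The members and lists were chosen with earlier results of these data known. All members were named. From each list the text names the most abundant gene and the 2 largest called changes at 6, 24 and 72 h with a mean of at least 5 CPM. Alternatives were other size factors, total counts, no or a stricter filter, counts from TPM times 1 effective length per gene, a replicate block, removal of GC trends, DESeq2 1.42.0 and leaving out each library.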

Additional observations from a re-analysis of the deposited data

Results flagged for a closer look

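CCND3 moved in opposite directions against 0 h at 2 neighbouring times. It was lower at 6 h (log2 fold change -1.54) and higher at 24 h (0.73), and the difference between these times was 2.27 by edgeR's quasi-likelihood test (adjusted p = 4.84e-08). Both libraries of each time had the direction of their group.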

How the results depend on the processing

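Of 58 called log2 fold changes of the 10 genes, 39 kept their call and direction under all alternatives and 19 lost the call under at least 1. Of these, CDK6 at 3 h reversed, to -0.11 with counts from TPM and a fixed gene length. The count of genes called at 1.5 h was 1 with total counts and 0 with GC trends removed or counts from TPM, that at 0.5 h was 1 without the filter, that from 1.5 to 3 h was 5 with GC trends removed, that from 24 to 48 h was 2 with counts from TPM, and that from 48 to 72 h was 1 with total counts. Leaving out 1 library gave 0 to 5 calls at 0.5 h, between 0 and 3 at 1.5 h, between 3 and 6 at 3 h, and 1 to 2 from 1.5 to 3 h and 1 to 2 from 24 to 48 h. Values that were not called as fitted changed sign as follows. With total counts, CCNE1 was -0.20 at 3 h and -0.11 at 6 h, CDK2 -0.16 at 3 h, RBL1 -0.26 at 6 h and CDK6 -0.21 at 24 h. From 1.5 to 3 h they were -0.08 for CDK6, 0.00 for CDK2 and -0.02 for RB1. With counts from TPM, CDK6 was -0.20 at 0.5 h, -0.19 at 1.5 h and -0.47 at 24 h (called), CCNE1 -0.06 and CDK2 -0.02 at 3 h. With GC trends removed, CCNE2 was -0.03 at 0.5 h, CCND2 0.05 at 3 h and 0.02 from 1.5 to 3 h, CDK6 0.06 and CDK2 0.17 at 6 h, where total counts called CDK6 (-0.45) and CDK2 (-0.50) lower and GC removal called CCNE1 (0.63) and RBL1 (0.25) higher. Without 1 library, CDK6 ranged from -0.28 to 0.15 at 6 h and from -0.17 to 0.27 at 24 h, CCNE1 from -0.12 to 0.27 at 3 h, CCNE2 from -0.04 to 0.75 at 0.5 h and RBL1 from -0.01 to 0.23 at 6 h. The cause of these changes was not tested. Of 41 further values called nowhere, 25 changed sign somewhere. A lone library left at a time is assumed to vary like the others, and the counts under alternatives have no share of all genes beside them.

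Replicate numbers were not taken as pairs in the main fit, since the labels name no batch. Deviations of same-numbered libraries nevertheless correlated at -0.28 to 0.60 (median 0.26), over 0.1 in 24 of 28 pairs of times. The spread in the main fit thus includes any difference that goes with the replicate number. With a replicate block, all 58 calls were kept and 2 were added, CDK6 at 1.5 h (0.39) and CCND3 from 24 to 48 h (0.45), and the genes called at 1.5 h numbered 3. Depth limits CCNE1 and CCNE2 most, with as few as 333 and 242 reads.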
